A study of Mus musculus with 9 samples.

Results

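The sirtuin genes Sirt1 to Sirt7 encode the mammalian family of NAD-dependent protein deacylases, and all 7 were taken by name from the 21887 protein-coding genes placed on the reference chromosomes. Each gene was read over its annotated span in the mouse build GRCm38 plus 2 kb on either side. The chromatin was from lung endothelial cells of wild-type (WT) mice, which line the vessels of the lung. The labels name no treatment, age, sex or strain, and give no number of animals behind a library. ACT-seq was used, in which an antibody bound to its mark guides the Tn5 transposase to cut and tag the nearby DNA. The 8 marks were H3K4me3, a trimethylation typical of active promoters, and 7 histone acetylations, namely H2AK5ac, H4K8ac and, on histone H3, H3K9ac, H3K14ac, H3K18ac, H3K23ac and H3K27ac. An IgG library served as the control. Each target had 1 library, so the values below have no replicate error and no test between marks or genes was possible.

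Sirtuins remove acetyl and longer acyl groups from lysines and consume NAD in each round, which ties their activity to the NAD supply of the cell. Sirt1, Sirt6 and Sirt7 are mainly nuclear and act on histones and on DNA-bound proteins. Sirt2 is mainly cytosolic, and Sirt3, Sirt4 and Sirt5 are mitochondrial. In endothelium, Sirt1 is known for deacetylating the nitric oxide synthase encoded by Nos3 and transcription factors of the FoxO family. Histone acetylation is found at promoters and enhancers in use and H3K4me3 mainly at promoters, so the peaks below describe the chromatin of the sirtuin genes themselves and not the activity of the enzymes.

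The deposited table joined 8 lists of peaks (regions where a mark is enriched) under shared identifiers, and the lists were separated again by their order along the genome. A list is named here after the library with the highest depth-scaled read density in it, as the H3K4me3-rich list, which is a measured property and no record of how the peaks were called. The 8 lists were led by 8 different libraries, none of them IgG. IgG came second in 5 lists, most closely in the H3K27ac-rich (22.3 against 44.2 CPM per kb) and the H3K14ac-rich list (6.00 against 13.4), where CPM are reads per 1000000 of a library's total. Library totals ran from 365999 reads (IgG) to 10044130 reads (H3K14ac). Of 12 endothelial marker genes 11 had peaks of all 8 lists (Cldn5 had none of any list), against 2 of 10 lung epithelial, 1 of 10 leukocyte and 1 of 10 mesenchymal markers. The share over all protein-coding genes was 44.6%.

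The DNA just before a start is shown for the 4 sirtuin genes in which at least 60 bases of it lie in no annotated gene span, because peaks over the start reach into this stretch, at Sirt7 only as far as -56 bp. The letters are those of the RefSeq promoter table of the build GRCm38.p6. They run 5′ to 3′ on the strand of the sirtuin gene and end 1 base before its annotated start. Capitals mark GC boxes (GGGCGG) and E-boxes (CACGTG) on either strand. The Sirt1 stretch is chr10:63339036-63339285 on the minus strand, and that of Sirt2 is chr7:28766645-28766751 on the plus strand. The Sirt3 stretch is chr7:140882310-140882393 and the Sirt7 stretch chr11:120625015-120625116, both on the minus strand.
Sirt1: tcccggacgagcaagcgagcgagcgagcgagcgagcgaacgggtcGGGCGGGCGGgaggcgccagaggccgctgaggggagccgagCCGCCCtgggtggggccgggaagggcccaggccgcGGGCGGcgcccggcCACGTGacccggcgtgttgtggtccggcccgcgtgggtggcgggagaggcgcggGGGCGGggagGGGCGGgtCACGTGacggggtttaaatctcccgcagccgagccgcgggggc
Sirt2: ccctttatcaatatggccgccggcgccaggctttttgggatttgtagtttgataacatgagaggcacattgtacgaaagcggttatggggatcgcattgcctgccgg
Sirt3: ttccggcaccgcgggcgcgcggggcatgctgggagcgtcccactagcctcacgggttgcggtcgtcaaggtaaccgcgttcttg
Sirt7: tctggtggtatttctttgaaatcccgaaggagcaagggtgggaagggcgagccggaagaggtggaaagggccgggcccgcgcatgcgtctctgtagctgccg

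The 250 bases before Sirt1 were 79.2% G+C and held 39 CpG dinucleotides. GC boxes began 205, 201, 164, 129, 61 and 51 bases before the start, the first pair overlapping, and E-boxes began 115 and 43 bases before it. The stretches before Sirt2, Sirt3 and Sirt7 held none of the 8 motifs searched. Those of Sirt2 (107 bases) and Sirt3 (84 bases) are the whole gap between the sirtuin gene and a neighbour read in the opposite direction, Nfkbib and Psmd13. The gap before Sirt7 (102 bases) ends at Mafg, which is read in the same direction.

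Over the whole promoter windows of the table, 250 bases before and 50 after a start, the 9 sirtuin promoters had a median G+C content of 61%, against 56.3% over 21263 promoters. Their median CpG count was 20, against 13. Sirt3 and Sirt6 each have 2 starts in the table. A GC box on either strand was found in 6 of the 9 sirtuin promoters, and in 46.2% of all promoters. These 6 belong to 6 genes, all but Sirt4, and at Sirt3 and Sirt6 only the second start had it. An E-box was found in 1 of the 9, that of Sirt1, and in 7.84% of promoters. The sequence CCAAT stood in 3 of the 9, at Sirt2, Sirt3 and Sirt5 (38.2% of promoters). The ETS-type sequence CCGGAAGT stood in 2, at Sirt3 and Sirt6 (5.15%), and the NRF1 motif in 1, at Sirt6 (6.38%). The YY1 motif, the CRE sequence TGACGTCA and the TATA sequence TATAAA were in none of the 9, and in 0.889%, 2.23% and 12.6% of all promoters. A match to letters is a description of the window and shows no binding.

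Across the family, 163 peaks lay in the 7 windows, and 68 of them had the commonest width of their list. That width was 102 to 206 bp depending on the list, and it lies at or near the narrowest width a list holds. Sirt1 to Sirt6 had peaks of all 8 lists, and Sirt7 had 7, with no H2AK5ac-rich peak. The full set of 8 was present in 44.6% of the 21887 genes, and in 43.4% of the 8638 genes whose span is within the sirtuins' range of length. With only the peaks wider than the commonest width, 2 of the 7 sirtuin genes had all 8 lists, because the H2AK5ac-rich list then had a peak at 2 of them. That filter removes 76.1% of all H2AK5ac-rich peaks. The share of all genes under it was not computed, so the 44.6% and 43.4% are no background for these 2 genes.

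List by list, the H3K4me3-rich list had a peak at 7 of 7 sirtuin genes against 69.6% of all genes, and the H3K9ac-rich list at 7 against 59.2%. The shares of all genes were 71.6% for the H3K27ac-rich, 77.3% for the H3K18ac-rich, 69.7% for the H3K23ac-rich, 75.4% for the H4K8ac-rich and 89.8% for the H3K14ac-rich list, each of which had a peak at 7 of 7 sirtuin genes. The H2AK5ac-rich list had a peak at 6 of 7, against 55.2%. Among genes of like length the shares were 73.6% (H3K4me3-rich), 62.3% (H3K9ac-rich), 76.1% (H3K27ac-rich), 82.2% (H3K18ac-rich), 72.3% (H3K23ac-rich), 80.1% (H4K8ac-rich), 54.7% (H2AK5ac-rich) and 94.8% (H3K14ac-rich). With shares this high among all genes, and 7 members, the presence of a peak in the window says little about the family.

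The position of the peaks separated the lists further. Within 1 kb of an annotated start, H3K4me3-rich peaks were present at 7 of 7 sirtuin genes (58.8% of the 17492 genes with a start in the promoter table), as were H3K27ac-rich (57.9%), H3K18ac-rich (60.6%), H4K8ac-rich (60% of genes) and H3K14ac-rich peaks (71.4%). H3K9ac-rich peaks were there at 5 of 7 (48.1%), all but Sirt4 and Sirt7. H3K23ac-rich peaks were also at 5 of 7 (51.7%), all but Sirt4 and Sirt5. H2AK5ac-rich peaks were at 2 of 7 (31.6%), Sirt2 and Sirt6, which were the only sirtuin genes with all 8 lists at a start (26.5% of genes).

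Peaks lying over the start base itself were of the H3K4me3-rich list in all 7 genes (52% of all genes). The H3K18ac-rich and the H4K8ac-rich list each covered it in 6 (47.4% and 46.2%), and the H3K9ac-rich (35.6%), H3K27ac-rich (48.6%) and H3K14ac-rich list (41.5%) in 5. The H3K23ac-rich list covered a start in 4 (35.7%), and the H2AK5ac-rich list in 2 (10.7%). Sirt4 and Sirt7 stood apart from the other 5, since peaks of only 2 lists covered their start. For Sirt4 these were H3K4me3-rich and H4K8ac-rich, and for Sirt7 H3K4me3-rich and H3K18ac-rich. The Sirt4 start used lies inside the annotated span, whose upstream end has no listed start but holds a site of 7 lists. The nearest edges of the Sirt4 H3K27ac-rich and H3K18ac-rich peaks were at -33 and -62 bp from that start (negative is upstream). The share of all genes with so few lists over a start was not computed.

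**Figure D1:**
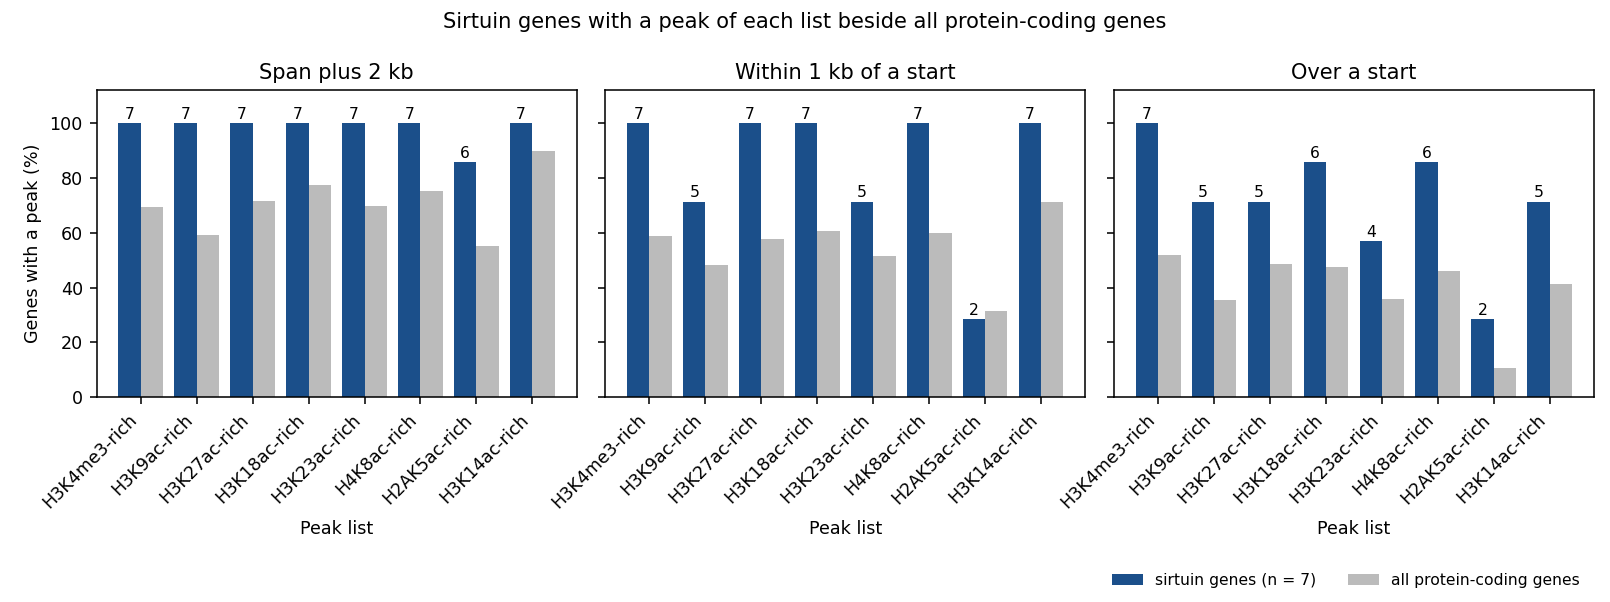
Share of genes with a peak of each list (vertical axis, percent) in the span plus 2 kb, within 1 kb of an annotated start and over a start, for the 7 sirtuin genes (blue, number of genes above the bar) and all protein-coding genes (grey). The H3K4me3-rich bar stays at 7 genes in every panel, while the H2AK5ac-rich bar drops from 6 genes to 2.

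Covered bases, the bases of a gene's window that lie under the peaks of a list, gave a measure of extent. Summed over the 8 lists they were 6910 bp at Sirt1, 8439 bp at Sirt2, 6773 bp at Sirt3, 8362 bp at Sirt4, 7055 bp at Sirt5, 5612 bp at Sirt6 and 5363 bp at Sirt7. The median of 6910 bp stood beside 5009 bp for all genes and 4423 bp for genes of like length. Sirt2 and Sirt4 led, and Sirt6 and Sirt7, the shortest genes of the family (6006 and 6644 bp), came last. The Sirt4 total includes peaks of all 8 lists at an end of Pxn, outside the gene. Without them Sirt4 would rank below Sirt6. The Sirt7 total includes peaks of 7 lists at an end of Pcyt2, also outside the gene. The order of neighbours in this ranking has no error to be set against.

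The H3K4me3-rich list covered the most bases at Sirt4 (1763 bp) and Sirt7 (1649 bp), and the fewest at Sirt6 (668 bp) and Sirt5 (737 bp). The Sirt4 value includes part of a 521 bp peak at the end of Pxn that runs past the window. The Sirt7 value includes 909 bp at the end of Pcyt2, and both peaks lie outside the sirtuin gene. Without them Sirt4 is no longer first, and Sirt7 has 740 bp, below Sirt1, Sirt2 and Sirt3. All window values of Sirt4 and Sirt7 above 0 include peaks at these ends of Pxn and Pcyt2. The H3K9ac-rich list ranged from 419 bp at Sirt7 to 1241 bp at Sirt4, and the H3K27ac-rich list from 580 bp at Sirt7 to 1098 bp at Sirt2. The whole 419 bp at Sirt7 is the peak at Pcyt2. Without the peak at Pxn, Sirt4 has fewer H3K9ac-rich bases than Sirt2 and Sirt3. In the H3K18ac-rich list the range was 604 bp (Sirt7) to 1318 bp (Sirt2), and in the H3K23ac-rich list 618 bp (Sirt5) to 1294 bp (Sirt2). Sirt7 had the fewest covered bases of the family in every acetylation list but the H3K23ac-rich. These counts are not scaled to the size of the window, and Sirt7 is a short gene. As a share of the window it was lowest in the H2AK5ac-rich list alone. The H3K27ac-rich share was 5.45% at Sirt7 against 3.16% at Sirt5, and the H3K14ac-rich share 5.19% against 2.39% at Sirt1. The H4K8ac-rich list ran from 529 bp at Sirt7 to 1583 bp at Sirt4, the H3K14ac-rich list from 552 bp at Sirt7 to 1198 bp at Sirt5, and the H2AK5ac-rich list from 0 at Sirt7 to 380 bp at Sirt2. Without the H4K8ac-rich peak at Pxn, Sirt5 (1553 bp) and not Sirt4 has the most H4K8ac-rich bases. The family medians and those of all genes were 1291 and 780 bp for H3K4me3, 737 and 206 bp for H3K9ac, 1067 and 652 bp for H4K8ac, and 957 and 890 bp for H3K14ac. They were 853 and 570 bp for H3K27ac, 1024 and 617 bp for H3K18ac, 984 and 439 bp for H3K23ac, and 129 and 129 bp for H2AK5ac. Among genes of like length the medians were 810 bp (H3K4me3), 315 bp (H3K9ac), 553.5 bp (H3K27ac) and 579 bp (H3K18ac). The others were 412 bp (H3K23ac), 646 bp (H4K8ac), 129 bp (H2AK5ac) and 787 bp (H3K14ac).

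**Figure D2:**
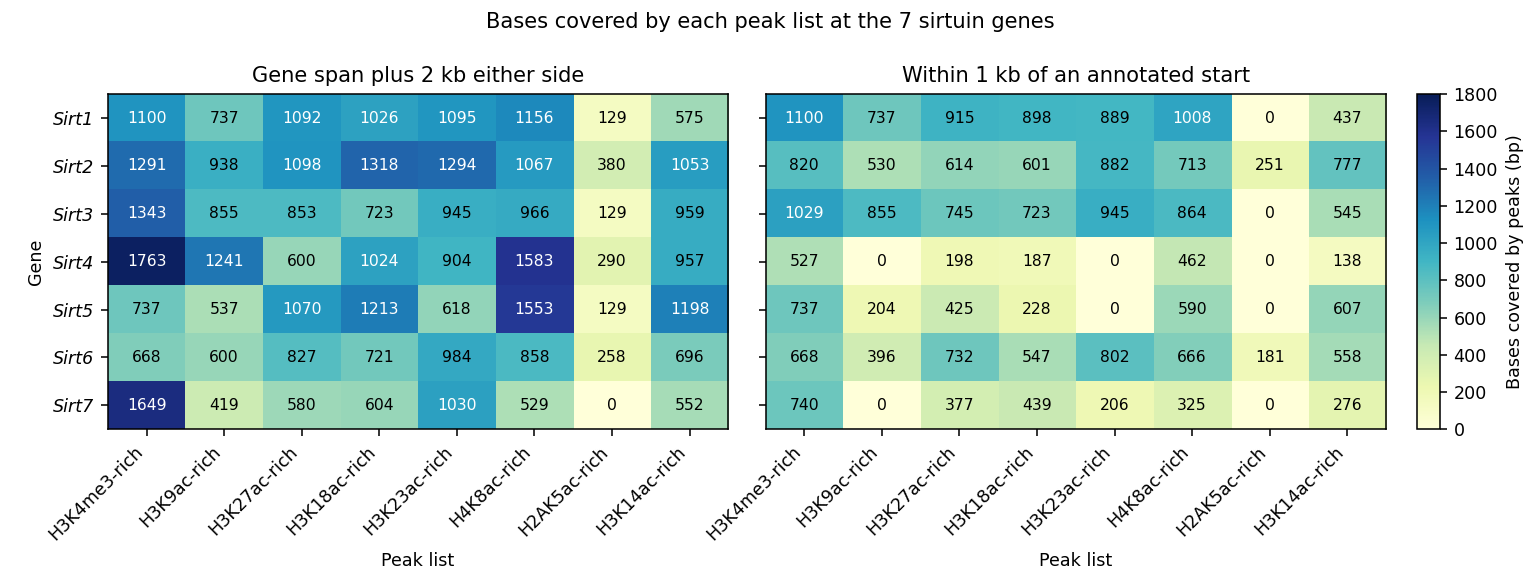
Bases covered by the peaks of each list (columns) at each sirtuin gene (rows), in bp by colour and printed value, in the span plus 2 kb (left) and within 1 kb of an annotated start (right). On the left Sirt4 has the most H3K4me3-rich bases (1763 bp) and Sirt7 the fewest H3K9ac-rich (419 bp) and H4K8ac-rich (529 bp) and no H2AK5ac-rich base.

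Joining peaks of any list that lay within 200 bp of each other gave 49 sites in the 7 windows. Of these 28 held 1 list, 15 held 4 or more, 7 held 7 or 8, and 3 held all 8. The same counts over the windows of all genes were not made. The 3 sites of 8 lists were the starts of Sirt2 and Sirt6 and a site upstream of Sirt4 that holds an end of Pxn. Positions below are distances from the annotated start in the direction of transcription, with negative values upstream. Whether a site inside a gene is exonic or intronic was not analysed here.

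**Figure D3:**
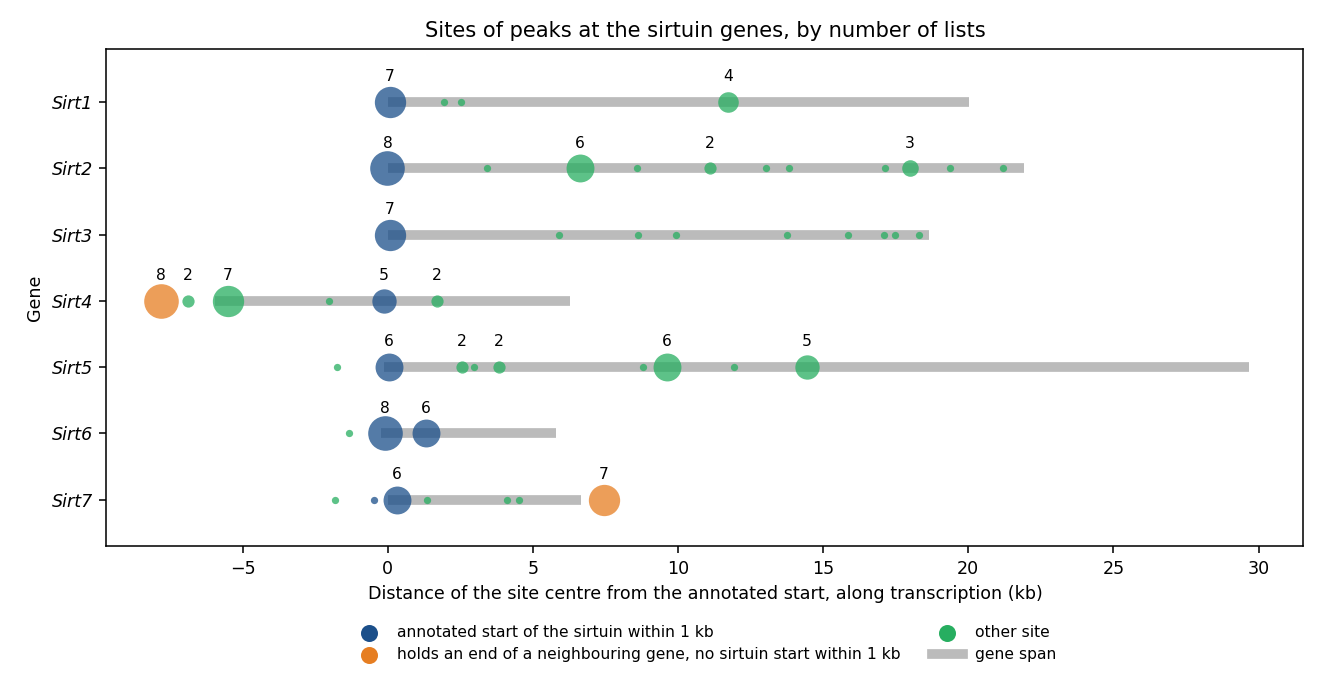
Sites in the window of each sirtuin gene, placed by distance from the annotated start (horizontal axis, kb, negative upstream) with the number of lists in the site given by the size of the circle and, from 2 lists, by the digit printed over it, and gene spans as grey bars. Apart from Sirt4, each gene's start site holds 6 to 8 lists, and Sirt1, Sirt2, Sirt5 and Sirt6 have further sites of 4 to 6 lists inside the gene, that of Sirt6 within 1 kb of its second start.

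Among the nuclear sirtuins, Sirt1 (gene ID 93759, chr10:63319005-63339035, minus strand) encodes a deacetylase of histones, FoxO factors and the coactivator PGC-1α. A site of 7 lists lay over its start (chr10:63338261-63339653). In it H3K4me3-rich peaks covered 1100 bp, H4K8ac-rich 1008 bp, H3K27ac-rich 915 bp, H3K18ac-rich 898 bp, H3K23ac-rich 889 bp, H3K9ac-rich 737 bp and H3K14ac-rich 437 bp. The H3K4me3-rich peak was the widest at any sirtuin start, and it spans the GC boxes and E-boxes printed above. The H2AK5ac-rich list had no peak within 1 kb of the Sirt1 start.

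Inside Sirt1, 11723 bp downstream of the start, lay a site of 4 lists (chr10:63327222-63327402). It held H3K27ac-rich (177 bp), H4K8ac-rich (148 bp), H2AK5ac-rich (129 bp) and H3K18ac-rich (128 bp) peaks and none of H3K4me3, H3K9ac, H3K23ac or H3K14ac. The only H2AK5ac-rich peak of Sirt1 was in this site. The remaining sites of the gene held 1 list each, H3K23ac-rich at 2506 bp and H3K14ac-rich at 1952 bp. The window of Sirt1 reaches into Herc4, but no site there held the start of another gene.

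Sirt6 (gene ID 50721, chr10:81621787-81627792, minus strand) encodes a chromatin-bound deacetylase with H3K9ac among its known substrates. Its start site (chr10:81627137-81628190) held all 8 lists. The covered bases were 778 bp H3K23ac-rich, 716 bp H3K27ac-rich, 668 bp H3K4me3-rich, 663 bp H4K8ac-rich, 558 bp H3K14ac-rich, 518 bp H3K18ac-rich, 396 bp H3K9ac-rich and 129 bp H2AK5ac-rich. Sirt6 was the only sirtuin gene whose H3K4me3-rich peak over a start was narrower than its H3K23ac-rich and its H3K27ac-rich peak. The site also holds an end of Ankrd24, whose nearest start is 974 bp away on the opposite strand, so the peaks cannot be assigned to 1 of the 2 genes.

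A second Sirt6 site, 1314 bp downstream of the start (chr10:81626130-81626373), held 6 lists and neither H3K4me3 nor H3K9ac. Its peaks were narrow, from 111 bp (H3K27ac-rich) to 206 bp (H3K23ac-rich). It lies within 1 kb of the second annotated start of Sirt6.

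Sirt7 (gene ID 209011, chr11:120618371-120625014, minus strand) encodes a nucleolar and chromatin-bound deacetylase with H3K18ac among its known substrates. Its start site (chr11:120624331-120625070) held 6 lists and lay almost wholly downstream of the start. The H3K4me3-rich peak of 740 bp was centred at 314 bp and reached only to -56 bp. The H3K18ac-rich peaks covered 439 bp, the H3K27ac-rich peak 377 bp, the H3K14ac-rich peaks 276 bp, the H4K8ac-rich peaks 223 bp and the H3K23ac-rich peak 206 bp. Neither an H3K9ac-rich nor an H2AK5ac-rich peak was present.

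The H3K9ac-rich peak of the Sirt7 window lay past the other end of the gene, centred at 7061 bp and 419 bp wide. It was part of a site of 7 lists (chr11:120616981-120618177) that also had 909 bp of H3K4me3-rich peak. This site holds an end of Pcyt2, and no part of it lies inside Sirt7. With the gene span alone, without the added 2 kb, Sirt7 had 6 lists and the H3K9ac-rich list a peak at 6 of the 7 sirtuin genes. Of the 5 H3K23ac-rich peaks in the Sirt7 window, each was at the list's commonest width of 206 bp, and 3 of them stood alone inside the gene.

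The mainly cytosolic Sirt2 (gene ID 64383, chr7:28766752-28788665, plus strand) encodes a deacetylase known for acting on tubulin. Its start site (chr7:28766099-28767380) held all 8 lists, with 882 bp H3K23ac-rich, 820 bp H3K4me3-rich, 777 bp H3K14ac-rich, 713 bp H4K8ac-rich, 614 bp H3K27ac-rich, 601 bp H3K18ac-rich, 530 bp H3K9ac-rich and 251 bp H2AK5ac-rich. The H2AK5ac-rich peak was the widest of that list at any sirtuin gene. The start of Nfkbib, an inhibitor of NF-κB, lies 108 bp away on the opposite strand, and the widest peak of each list was centred on the Nfkbib side. The centres ran from -244 bp (H3K4me3-rich) and -240 bp (H3K9ac-rich) to -77 bp (H3K23ac-rich), and the site cannot be assigned to 1 of the 2 genes.

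Inside Sirt2, a site of 6 lists lay 6614 bp downstream of the start (chr7:28773195-28773538). Its peaks were 301 bp H3K27ac-rich, 252 bp H4K8ac-rich, 234 bp H3K18ac-rich, 204 bp H3K9ac-rich, 157 bp H3K4me3-rich and 129 bp H2AK5ac-rich. The last 3 were at the commonest width of their list. A further site at 17980 bp held H3K18ac-rich (275 bp), H3K27ac-rich (183 bp) and H3K14ac-rich (138 bp) peaks. Of the 11 Sirt2 sites, 7 held 1 list.

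Of the mitochondrial members, Sirt3 (gene ID 64384, chr7:140863663-140882309, minus strand) encodes the main deacetylase of the mitochondrial matrix. Its peaks of different lists met only at the start (chr7:140881646-140882807), in a site of 7 lists that also holds the start of Psmd13, a proteasome subunit gene, 85 bp away on the opposite strand. The covered bases were 1029 bp H3K4me3-rich, 945 bp H3K23ac-rich, 864 bp H4K8ac-rich, 855 bp H3K9ac-rich, 745 bp H3K27ac-rich, 723 bp H3K18ac-rich and 545 bp H3K14ac-rich. The other 8 sites of Sirt3 each held 1 peak of 1 list at its commonest width.

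Sirt5 (gene ID 68346, chr13:43365389-43395203, plus strand) encodes an enzyme that removes malonyl, succinyl and glutaryl groups. It was the only sirtuin gene with no other protein-coding gene in its window, and the longest of the family (29815 bp). Its start site (chr13:43365140-43366015) held 6 lists, with 737 bp H3K4me3-rich, 607 bp H3K14ac-rich, 590 bp H4K8ac-rich, 425 bp H3K27ac-rich, 228 bp H3K18ac-rich and 204 bp H3K9ac-rich. No H3K23ac-rich and no H2AK5ac-rich peak was within 1 kb of the start.

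Inside Sirt5, a site at 9614 bp (chr13:43374877-43375420) held 6 lists, led by an H3K9ac-rich peak of 333 bp. That peak was wider than the H3K9ac-rich peak over the Sirt5 start, the reverse of the order at Sirt2. A second internal site at 14428 bp (chr13:43379480-43380446) held 5 lists, with 612 bp H4K8ac-rich, 452 bp H3K27ac-rich, 402 bp H3K18ac-rich, 206 bp H3K23ac-rich and 177 bp H3K14ac-rich. Each of H4K8ac, H3K27ac and H3K18ac covered more bases there than at the start, and neither internal site had an H3K4me3-rich peak.

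Sirt4 (gene ID 75387, chr5:115478006-115490264, minus strand) encodes a mitochondrial enzyme known for restraining glutamate dehydrogenase. The start in the promoter table lies inside the annotated span. The site there (chr5:115484105-115484760) held 5 lists, with 527 bp H3K4me3-rich, 462 bp H4K8ac-rich, 198 bp H3K27ac-rich, 187 bp H3K18ac-rich and 138 bp H3K14ac-rich. It had no peak of H3K9ac, H3K23ac or H2AK5ac, and its H3K4me3-rich peak was the narrowest over a start in the family.

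The upstream end of the Sirt4 span, which has no start in the promoter table, lay in a larger site centred at -5522 bp (chr5:115489184-115490454). This site held 7 lists, with 810 bp H3K4me3-rich, 573 bp H4K8ac-rich, 454 bp H3K18ac-rich, 443 bp H3K9ac-rich, 300 bp H3K23ac-rich, 284 bp H3K14ac-rich and 129 bp H2AK5ac-rich, and no H3K27ac-rich peak. A further site, centred at -7820 bp and outside the span (chr5:115491819-115492416), held all 8 lists and an end of Pxn, which encodes the focal adhesion protein paxillin. Its H3K27ac-rich peak of 517 bp was the widest of that list in the Sirt4 window. The Sirt4 total of 8362 bp thus includes peaks at an end of another gene, and without the added 2 kb Sirt4 had 7 lists.

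A site of 4 or more lists inside the gene and over 1 kb from any annotated start was present in 4 of the 7 sirtuin genes (Sirt1, Sirt2, Sirt4 and, with 2 such sites, Sirt5), against 40.6% of all genes. The Sirt4 one is the site at the upstream end of its span. In the remaining 3 genes such a site had H3K27ac-rich, H3K18ac-rich and H4K8ac-rich peaks each time, and an H3K4me3-rich peak at Sirt2 alone. Only 17492 of the 21887 genes have a start in the promoter table. For the rest, a site at the gene's own start counts here as away from starts. The 40.6% is therefore too high by an amount that was not computed.

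**Figure D4:**
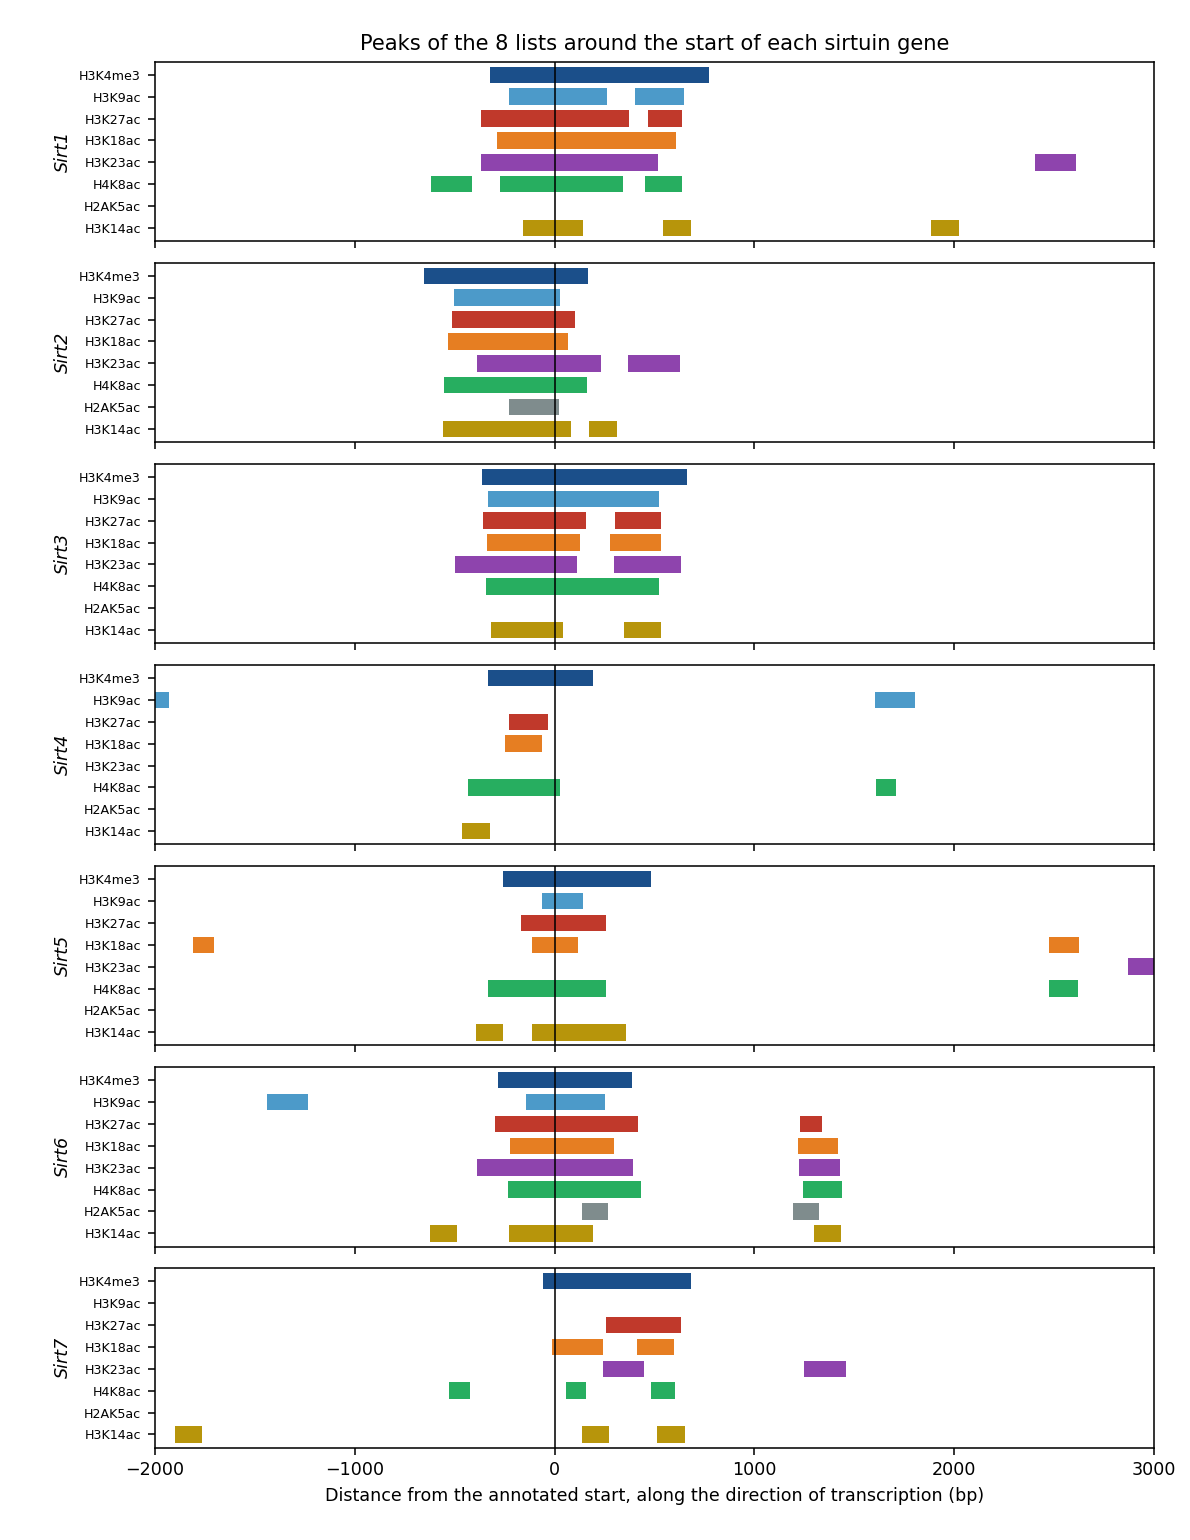
Peaks of the 8 lists around the annotated start of each sirtuin gene, as bars by distance from the start (horizontal axis, bp, negative upstream, direction of transcription to the right). An H3K4me3-rich bar lies over each of the 7 starts. At Sirt7 the bars that share bases with it lie mostly downstream of the start. Splits were counted only in the acetylation bars on it, and occur at Sirt1, Sirt3 and Sirt7.

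The H3K4me3-rich peak over the start had a median width of 740 bp in the 7 genes (range 527 to 1100 bp), against 976 bp over 8739 genes. The H3K9ac-rich peaks over a sirtuin start were also narrower at the median than those of all genes (488 against 634 bp). Acetylation peaks were wider at the median for the H4K8ac-rich (640 against 440 bp), H3K27ac-rich (614 against 476 bp) and H3K23ac-rich list (698.5 against 594 bp). They differed less for the H3K18ac-rich (492.5 against 456 bp) and H3K14ac-rich list (420 against 389 bp). These medians rest on 4 to 7 genes per list and were not tested.

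The acetylation peaks that share bases with the H3K4me3-rich start peak were in some genes broken in 2. At Sirt3 the breaks overlapped one another, from 159 to 301 bp in the H3K27ac-rich, 128 to 275 bp in the H3K18ac-rich, 110 to 294 bp in the H3K23ac-rich and 43 to 345 bp in the H3K14ac-rich list. At Sirt1 they ran from 261 to 399 bp (H3K9ac-rich), 373 to 464 bp (H3K27ac-rich), 344 to 451 bp (H4K8ac-rich) and 142 to 543 bp (H3K14ac-rich). At Sirt7 they ran from 240 to 411 bp (H3K18ac-rich), 159 to 482 bp (H4K8ac-rich) and 274 to 514 bp (H3K14ac-rich). All these breaks lay downstream of the start used, but those of Sirt3 lay upstream of its second annotated start (chromosome 7, 140881869). Breaks were counted only between peaks that both share bases with the H3K4me3-rich start peak. That this peak runs across each break therefore follows from the counting, and breaks in the H3K4me3-rich list itself were not counted.

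Broken peaks were common among genes in general. A pair of H3K14ac-rich peaks on the H3K4me3-rich start peak was found at 3 of 7 sirtuin genes, against 45.4% of the 8739 genes with 2 or more. The counts were 2 of 7 for the H4K8ac-rich (46.6%), the H3K27ac-rich (35.2%) and the H3K18ac-rich list (40.1%). They were 1 of 7 for the H3K9ac-rich (25.7%) and the H3K23ac-rich list (30.2%), and 0 of 7 for the H2AK5ac-rich list (12.2%). The sirtuin counts are close to these backgrounds. Sirt2, Sirt4, Sirt5 and Sirt6 had no broken peak of this kind in any list.

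Read counts could be assigned to a sirtuin gene only where an identifier held 1 region, since the other identifiers sum reads over unrelated places in the genome. Such identifiers exist only in the H3K14ac-rich list and only on the chromosomes late in the table's order. They gave 14 regions at Sirt2, Sirt3 and Sirt4, and none at Sirt1, Sirt5, Sirt6 and Sirt7. Reads that overlapped regions of 2 identifiers were discarded in the counting, so the 5 of these regions that lie wholly under peaks of other lists have 0 reads in every library. The counts therefore come from the flanks of sites and from stretches that only the H3K14ac-rich list covers. As the regions were called in a list rich in H3K14ac, a high H3K14ac count in them is partly given by the choice. Intervals are exact Poisson 95% intervals and cover counting error only, with each read taken as independent although both mates of a pair were counted.

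At Sirt2 the 4 regions held 42 H3K14ac reads (interval 30.3 to 56.8), 9 H3K27ac reads (4.12 to 17.1), 8 H3K4me3 reads (3.45 to 15.8), 1 H3K18ac read, and 0 in the H2AK5ac, H3K23ac, H3K9ac, H4K8ac and IgG libraries. All 8 H3K4me3 reads came from the region centred 242 bp downstream of the start, at the edge of the start site. The regions at 17834 and 21184 bp had 9 and 19 H3K14ac reads and no H3K4me3 read. Scaled to 1000000 reads of the library in the table (CPM), the values were 4.18 CPM for H3K14ac, 3.55 CPM for H3K27ac and 5.41 CPM for H3K4me3. These have overlapping intervals. With only the regions that share no base with another, H3K4me3 at Sirt2 had 0 CPM and H3K14ac 2.79 CPM.

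At Sirt3 the 5 regions held 62 H3K14ac reads (47.5 to 79.5), or 6.17 CPM. They held 6 H3K27ac reads (2.20 to 13.1), 1 H4K8ac read and 0 in the other 6 libraries. The reads lay in the 3 regions at 9934, 17106 and 17490 bp downstream of the start, with 20, 24 and 18 H3K14ac reads. These were sites of the H3K14ac-rich list alone. The interval of H3K14ac (4.73 to 7.91 CPM) overlapped that of H3K27ac (0.869 to 5.16 CPM).

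At Sirt4 the 5 regions held 61 H3K14ac reads (46.7 to 78.4), 25 H3K4me3 reads (16.2 to 36.9), 19 H3K27ac reads (11.4 to 29.7), 16 H3K9ac reads (9.15 to 26), 15 H3K18ac reads (8.40 to 24.7), 12 H3K23ac reads (6.20 to 21) and 6 H4K8ac reads (2.20 to 13.1). H2AK5ac and IgG had 0. Sirt4 was the only one of the 3 genes with reads of 7 marks. In CPM the order was H3K4me3 16.9, H3K9ac 9.83, H3K18ac 9.70, H3K27ac 7.50, H3K14ac 6.07, H4K8ac 3.43 and H3K23ac 2.50 CPM. The H3K4me3 interval (11 to 25 CPM) lay above that of H3K14ac (4.65 to 7.80 CPM) and overlapped that of H3K9ac (5.62 to 16 CPM).

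The region at -4956 bp, on the inner flank of the site at the upstream end of Sirt4, had 30 H3K14ac, 17 H3K4me3, 13 H3K18ac and 12 H3K23ac reads. The region at -6700 bp, between that site and the one at Pxn, had 31 H3K14ac, 12 H3K9ac, 8 H3K4me3 and 8 H3K27ac reads and no H3K23ac or H4K8ac read. Near the annotated start of Sirt4 the region at -394 bp had 4 H3K27ac reads and 0 of every other library over 30 unshared bases. The Sirt4 reads thus came mostly from around the upstream end of its span. A window of 5 kb on either side took the Sirt4 values to 39.4 CPM for H3K18ac, 20.6 for H4K8ac, 18.6 for H3K27ac, 10.3 for H3K14ac and 9.78 CPM for H3K23ac. H3K4me3 was then at 21 and H3K9ac at 9.83 CPM, so H3K18ac and not H3K4me3 came first, and the order of the marks depends on the window.

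The IgG count of 0 at the 3 genes allows up to 3 reads, or 8.20 CPM in this shallow library, and the upper bound of its exact Poisson interval is 10.1 CPM. Both are above every value at Sirt2 and Sirt3, so enrichment over IgG was not detectable there at this depth. At Sirt4 the values of H3K9ac and H3K18ac lie between these limits, and that of H3K4me3 (16.9 CPM) lies above both. Because both mates of a pair were counted, reads are not independent fragments, and the intervals and limits are too narrow by an amount the table does not give. Enrichment over IgG at Sirt4 is therefore not established for any mark.

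**Figure D5:**
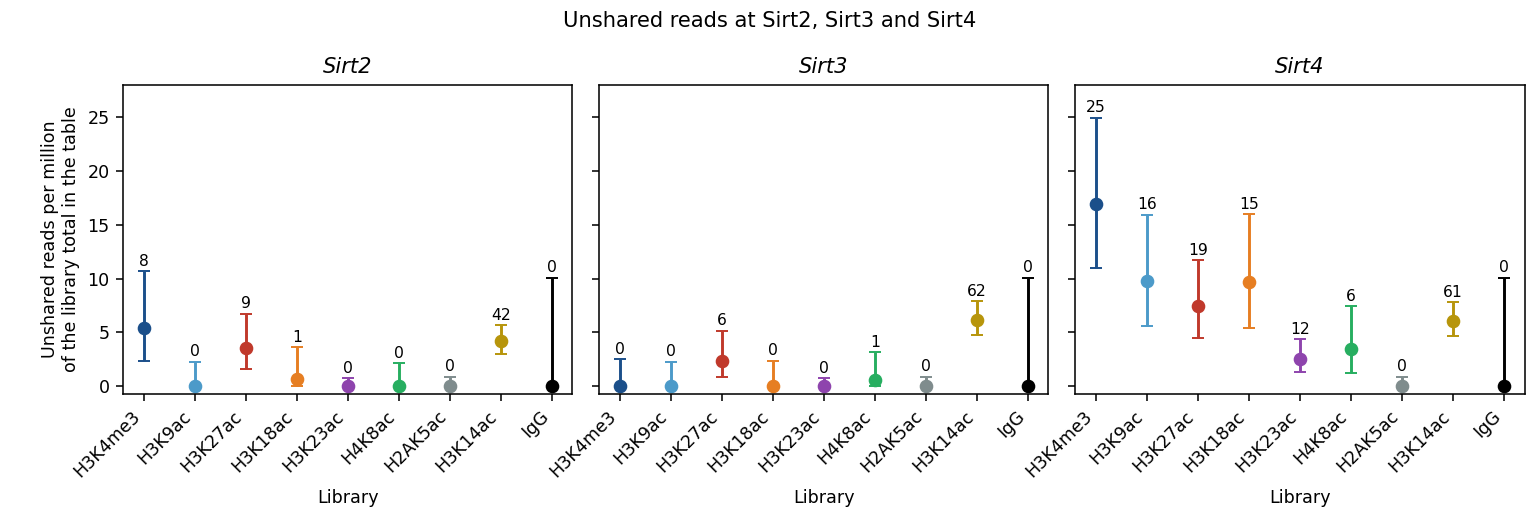
Reads of each library per 1000000 of its total (CPM, vertical axis) in the regions of 1-region identifiers at Sirt2, Sirt3 and Sirt4 (points, with exact Poisson 95% intervals as bars and the number of reads above them). H3K14ac lies between 4.18 and 6.17 CPM at the 3 genes, and H3K4me3 reaches 16.9 CPM at Sirt4.

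The genes that supply or consume NAD, the cosubstrate of sirtuins, were read from a list of 24. Their median was 8 lists in the span plus 2 kb, the same as for the sirtuins and 1 above the median of 7 over all genes, and 17 of 24 had all 8, against 44.6% of all genes. Nampt, the rate-limiting enzyme of NAD salvage, had all 8 lists, with 1638 bp H3K4me3-rich and 1982 bp H3K23ac-rich. Nmnat1, which makes NAD in the nucleus, and the NAD consumers Parp1 and Cd38 also had all 8. At Nmnat1 the H3K27ac-rich bases (302 bp) were fewer than at any sirtuin gene. The enzymes of the route from tryptophan were mixed. Kmo and Tdo2 had 3 lists each and Kynu 2, with no H3K4me3-rich peak. Haao and Ido1 had 6 lists each and Qprt 8, with H3K4me3-rich peaks of 478, 471 and 314 bp.

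Of 24 regulators and substrates of sirtuins, 16 had all 8 lists (44.6% of all genes), and the median was again 8 (7 for all genes). Foxo1, a deacetylation target of Sirt1, had all 8, with 6397 bp H3K27ac-rich and 8657 bp H3K23ac-rich over a span of 81773 bp. Nos3, the endothelial nitric oxide synthase, had all 8, with 1261 bp H3K27ac-rich and 834 bp H3K4me3-rich. Ccar2, an inhibitor of Sirt1, had 7 lists and no H2AK5ac-rich peak, as Sirt7. Of the 11 zinc-dependent histone deacetylases, the other class of lysine deacetylase, 8 had all 8 lists (44.6% of all genes), among them Hdac1 with 2250 bp H3K4me3-rich.

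The gene most like each sirtuin in covered bases was found by the smallest distance over the 8 lists on the scale log2(covered bases + 100). For Sirt1 it was Cox15 (distance 0.40, against a median of 4.70 over all genes), with 1074 bp H3K4me3-rich and 880 bp H3K27ac-rich. For Sirt2 it was Fancg (0.38), for Sirt3 Prpf38b (0.26), for Sirt4 Hnrnpc (0.26) and for Sirt6 Dele1 (0.48). For Sirt5 it was Pwwp3b (0.62), and for Sirt7 Arf5 (0.57), which likewise had no H2AK5ac-rich base. The likeness is over 8 values per gene, each from 1 library. As each gene was picked for its small distance, a distance far below the median follows from the choice. The H2AK5ac-rich bases shared in kind by Arf5 and Sirt7 were among the values matched.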

How the data were processed

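ACT-seq was done on lung endothelial nuclei with 1 library for each of 8 marks and for IgG, and libraries were grouped by the target named in their labels. The authors deposited 1 table of read counts; per the file headers, featureCounts 2.0.6 counted each mate of a pair, without strand, and discarded a read overlapping more than 1 identifier. The builds mm10 and GRCm38.p6, the aligner STAR, the peak caller MACS2, and Trim Galore, FastQC, MultiQC and DESeq2 are listed per the submitters' processing notes. For aligner and peak-caller settings, duplicate handling and the use of IgG the entry is: not given in the sources used here.

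The 578465 deposited identifiers hold 1309635 regions. They were separated into 8 lists by genome order and by the commonest width of each list. Order alone assigned 8 regions on chromosomes 1 to 19, X and Y to another list, and 1960 elsewhere. With order and width together, 251 identifiers broke a constraint. In simulated lists of the same sizes (911433 regions under shared identifiers), 99.99% returned to their list. The simulated positions were drawn evenly and independently, with the same share at the commonest width in every list. In the deposited lists that share ran from 20.0% to 80.9% and peaks of different lists often met. The 99.99% is therefore no measure of accuracy on the deposited lists. A peak counted for a gene when it shared 1 base with the span plus 2 kb. Gene spans came from the RefSeq gene table and starts and strand from its promoter table (17492 of 21887 genes). CPM are counts per 1000000 reads of a library in the table. No edgeR or other count test was possible with 1 library per target. The named genes were the 7 sirtuins, their neighbours, 8 genes of the pathway lists and the gene most alike in covered bases. Kmo, Tdo2, Kynu, Haao, Ido1, Qprt and Cldn5 fall outside this rule and were named after their values were seen.

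The members and gene lists were chosen with earlier results of these data known. Alternatives were other windows, wider peaks only, overlap by at least 50% of the peak, separation by order alone, regions sharing no base and other library totals. Python 3.11.15, NumPy 2.4.6, SciPy 1.17.1 and matplotlib 3.10.9 were used.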

Additional observations from a re-analysis of the deposited data

How the results depend on the processing

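With only peaks wider than the commonest width of their list, 2 sirtuin genes in place of 6 had an H2AK5ac-rich peak, 2 in place of 6 had all 8 lists, and 1 in place of 2 had an H2AK5ac-rich peak within 1 kb of a start. The shares of all genes under this filter were not computed. With only regions that share no base, H3K14ac at Sirt2 was 2.79 CPM and H3K4me3 at Sirt2 was 0 CPM. With the span plus 5 kb, Sirt4 had 10.3 CPM for H3K14ac, 39.4 for H3K18ac, 9.78 for H3K23ac, 18.6 for H3K27ac and 20.6 CPM for H4K8ac, from the added regions. No other count tried moved by more than 1.5 times, and no other CPM left its counting interval. Smaller moves stayed within that limit. With wider peaks only, 5 sirtuin genes in place of 7 had an H3K14ac-rich peak within 1 kb of a start. For the H3K9ac-rich and the H3K23ac-rich list this count was 4 in place of 5. It stayed at 7 for the H3K4me3-rich, H3K27ac-rich, H3K18ac-rich and H4K8ac-rich list. Separation by order alone left all 16 counts of lists and genes as reported. The number of sites was 60 when peaks were joined only where they share a base and 41 with gaps of up to 500 bp. The distances of 0.5 and 2 kb from a start, the wider peaks near starts and the joining of sites were chosen after seeing the data.

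No paired analysis was possible because each target had 1 library. The libraries differ in depth from 365999 to 10044130 reads, so a list's peak number and the lack of a peak depend on depth as well as on the mark, and the 2 cannot be told apart. Peaks do not show how strong a mark was, and 4 of the 7 genes have no reads of their own.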
